A study of Mus musculus with 70 samples.

Results

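Pentachloronitrobenzene, coded PCNB in the labels, is a chlorinated nitroaromatic fungicide. Its arrays were chosen by that code in the title (animals 1-18, 1-16 and 1-20) and set against the feed controls, coded FCON, whose animal identifiers also begin with set number 1 (animals 1-27, 1-28 and 1-29). This gave 3 treated and 3 control arrays, 6 of the 70 in the series. All were right lung lobes of adult female B6C3F1 mice, a hybrid strain, aged 18 weeks, with 1 Affymetrix Mouse 430 2.0 array per animal. The treated mice ate chow with 8187 ppm PCNB on 7 days a week for 13 weeks, and the controls ate chow with 0 ppm over the same time. The other groups of set 1 used below were 3 mice each: N-(1-naphthyl)ethylenediamine dihydrochloride (NEDD) and 1,5-naphthalenediamine (NAPD), both at 2000 ppm in chow, and controls given corn oil by gavage on 5 days a week. Of set 2, 4 groups of 4 mice ate 2,2-bis(bromomethyl)-1,3-propanediol (BBMP, 1250 ppm), 4-nitroanthranilic acid (NAAC, 10000 ppm), malathion (MALA, 16000 ppm) or diazinon (DIAZ, 200 ppm), beside 4 feed controls of their own. Cyp1a1 levels below also come from groups gavaged on 5 days a week. In corn oil these were 2,3-benzofuran (BFUR, 240 mg/kg, set 1), coumarin (COUM, 200 mg/kg), 1,2-dibromoethane (DBET, 62 mg/kg) and benzene (BENZ, 100 mg/kg). In water they were N-methylolacrylamide (MACR, 50 mg/kg) and 2-chloromethylpyridine (CMPH, 250 mg/kg). All but BFUR were of set 2, which had corn oil (CCON) and water (WCON) controls of its own. Every group ran for 13 weeks, with mice aged 18 weeks. The labels do not say what the set number stands for.

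Many planar aromatic compounds bind the aryl hydrocarbon receptor (AhR), a transcription factor held in the cytoplasm by Hsp90. The bound receptor moves to the nucleus, pairs with Arnt and binds the short core GCGTG in xenobiotic response elements. Its best known target is Cyp1a1, a monooxygenase that is low in resting lung and strongly inducible in endothelial and epithelial cells. A second transcription factor, NRF2 (gene Nfe2l2), answers electrophiles and oxidants and drives glutathione synthesis, glutathione S-transferases and quinone reductase. Chlorinated nitrobenzenes are known to be cleared by reduction of the nitro group and by conjugation with glutathione, which leads to mercapturic acids.

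Values are log2 probe set signals, so a difference of 1 is a doubling of signal, and each gene is represented by its probe set with the highest mean. The 6 arrays had the markers of lung in all animals: Sftpc of type II cells ran from 14.37 to 14.45, Scgb1a1 of airway club cells from 14.24 to 14.29, and Ager of type I cells from 13.83 to 13.91. Correlations over the 14593 genes tested ran from 0.989 to 0.9935 within a group and from 0.989 to 0.9934 between treated and control arrays. The treated animals thus did not stand apart. Treated animal 1-16 was most like control animal 1-29 (r = 0.9934). These 2 extracts had the highest RNA optical densities of the 6 in the labels, 4.018 and 2.031, against 0.201 to 0.631 in the other 4. RNA integrity numbers were 8.3 to 8.9 in both groups, and the gap between 3' and 5' control probe sets, averaged over Actb and Gapdh, was 0.177 to 0.296 with PCNB and 0.278 to 0.364 in controls (exact permutation p = 0.2, two-sided, where 0.1 is the smallest possible).

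Cyp1a1 rose in the lungs of PCNB-fed mice. It lies on chromosome 9 (57687928 to 57703824 in GRCm38.p6) and read 9.15, 8.84 and 9.76 in treated animals 1-18, 1-16 and 1-20. In control animals 1-27, 1-28 and 1-29 it read 5.15, 5.18 and 6.70. The lowest treated animal thus lay more than 2 log2 units above the highest control, and 2 of the 3 controls were nearly equal while 1-29 was higher. The group means were 9.25 (SD 0.47, n = 3) and 5.68 (SD 0.88, n = 3). The difference was 3.58 ± 0.42 (SE), or 11.9-fold, with a 95% interval of 2.74 to 4.42 (limma adjusted p = 1.43e-07). Against the corn oil controls of the same set, where Cyp1a1 ran from 5.60 to 7.11, it was higher by 3.05 (adjusted p = 1.77e-05). Leaving out any 1 of the 6 arrays gave differences from 3.32 to 4.09, with Cyp1a1 the only gene called each time.

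The stretch of 250 bases before the transcript start that the RefSeq promoter table gives is printed here for 3 genes, because they are members of the AhR battery whose readings differed: Cyp1a1, which rose, its neighbour Cyp1a2 on the same chromosome, and Ahrr, the repressor of the receptor. Positions are in GRCm38.p6: chr9:57697363-57697612 on the plus strand, chr9:57683656-57683905 on the minus strand and chr13:74292332-74292581 on the minus strand. Each is written 5' to 3' on the gene's strand, and capitals mark the AhR core GCGTG, searched on both strands.
Cyp1a1: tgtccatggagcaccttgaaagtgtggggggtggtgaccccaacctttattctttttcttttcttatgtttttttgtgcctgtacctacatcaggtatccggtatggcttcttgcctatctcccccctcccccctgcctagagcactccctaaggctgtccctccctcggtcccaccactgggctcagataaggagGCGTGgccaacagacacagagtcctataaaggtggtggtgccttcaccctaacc
Cyp1a2: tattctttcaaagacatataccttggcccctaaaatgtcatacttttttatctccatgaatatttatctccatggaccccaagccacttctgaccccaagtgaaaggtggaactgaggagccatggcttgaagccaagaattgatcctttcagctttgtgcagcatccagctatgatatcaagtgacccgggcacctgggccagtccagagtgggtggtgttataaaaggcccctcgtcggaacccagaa
Ahrr: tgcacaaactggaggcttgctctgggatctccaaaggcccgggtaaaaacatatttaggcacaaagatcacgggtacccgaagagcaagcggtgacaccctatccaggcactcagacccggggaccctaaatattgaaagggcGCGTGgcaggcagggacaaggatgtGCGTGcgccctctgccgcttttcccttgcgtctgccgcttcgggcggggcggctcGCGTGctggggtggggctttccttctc
The Cyp1a1 start used here lies inside the gene span given above, which begins farther upstream, so its window is not the stretch before the first base of the gene. That window holds 1 core, whose first base lies 54 bases before the start used. The window of Cyp1a2 holds 0 and that of Ahrr 3, at 107, 82 and 27 bases. Such a core was found in 28.2% of the 32851 mouse promoter windows of this length, so a match is common and describes the letters only. The windows of Cyp1b1 and Tiparp hold 1 core each and that of Nqo1 holds 0. The well known enhancer elements of Cyp1a1 lie farther upstream than this window.

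**Figure D1:**
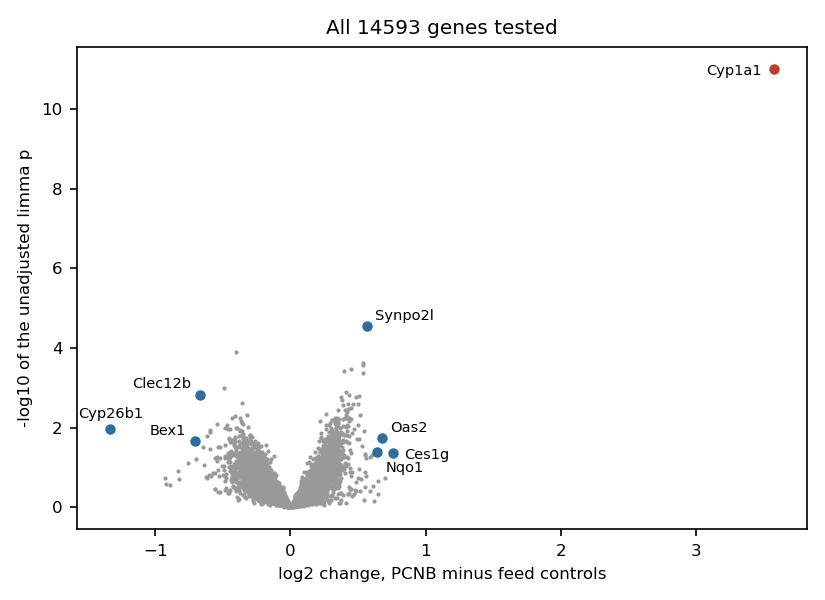
Each point is 1 of the 14593 genes tested, with the log2 change of PCNB minus feed controls (3 against 3 mice) on the x axis and -log10 of the unadjusted limma p on the y axis. Cyp1a1 (red) stands alone at 3.58; the blue points are 7 genes named in the text that did not pass the adjusted test, such as Cyp26b1 at -1.33.

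No other gene passed an adjusted p of 0.05, so 1 of 14593 genes (0.00685%) was called higher and 0 were called lower. Unadjusted p-values under 0.05 were found for 429 genes, 269 higher (1.84%) and 160 lower (1.1%), where 5% of the genes tested would be 729.65. The fit drew its spread from all 70 arrays, with a median residual SD of 0.192, and the median SD within the 3 PCNB and 3 control arrays was 0.139 and 0.140. Only Cyp1a1 and Cyp26b1 had a difference of 1 or more in either direction. The 95% interval of the difference lay within 1 log2 unit of 0 for 98.05% of genes, with a median distance of 0.314 from the estimate to either bound. That distance is for 1 gene without adjustment; the adjusted test asks for more, and Clec12b at -0.67 ± 0.20 and Synpo2l at 0.56 ± 0.12 did not pass it. Array weights, which give noisy arrays less weight, raised the count to 75 genes, 59 higher and 16 lower, with Cyp1a1 at 3.69 among them.

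The other AhR target genes lay above 0 without passing the test. Of 9 listed genes 6 were tested, Cyp1a1 among them, and all 6 had a positive difference, with a median of 0.31 against -0.019 over all genes tested. These counts and the median include Cyp1a1, which was already called. The others ran from 0.09 for Aldh3a1 to 0.64 for Nqo1. Treated and control animals did not overlap for 3 of the 6 (50%), Cyp1a1, Nqo1 and Cyp1a2, where 4.23% of all genes lay higher in this way. Nqo1, the quinone reductase that AhR and NRF2 share, read 6.47, 6.05 and 5.98 with PCNB and 5.53, 5.70 and 5.35 in controls. Its difference of 0.64 ± 0.31 had an unadjusted p of 0.0403 (limma adjusted p = 0.9997). Cyp1b1, the extrahepatic family member, read 7.21, 6.88 and 7.22 against 6.53, 7.14 and 6.55. Control animal 1-28 lay above treated animal 1-16, and the difference was 0.37 ± 0.30. Cyp1a2, the liver form, read 4.33, 4.33 and 4.31 against 4.08, 3.96 and 4.19. Its levels were near the filter of 4.25 and the difference was 0.25 ± 0.42. Tiparp, a mono-ADP-ribosyltransferase that damps the receptor, differed by 0.12 ± 0.23, and Aldh3a1, an aldehyde dehydrogenase, by 0.09 ± 0.25. Both changed sign when animal 1-18 was left out (-0.004 and -0.12), and Aldh3a1 also without 1-29 (-0.23). With corn oil controls instead, Tiparp was at -0.009, Aldh3a1 at 0.52 and Cyp1a2 at 0.12. Other probe sets of Tiparp were at -0.087 and -0.045 against the feed controls, with overlapping groups. Ahrr lay below the filter, at 3.48, 3.55 and 3.45 with PCNB and 3.18, 3.35 and 3.39 in controls, and was not tested. The remaining 2 listed genes, Ugt1a6a and Ugt1a6b, have no probe set of their own.

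Probe sets shared by the Ugt1a genes read higher with PCNB in each animal. UGT1A enzymes attach glucuronic acid to phenols and other substrates, and the locus joins alternative first exons to common last exons. Its probe sets are named for 8 genes at once, so they stayed out of the test over genes, and they were picked for this description once their values were known. Probe set 1426260_a_at read 11.14, 11.05 and 10.97 with PCNB against 10.43, 10.54 and 10.45. Probe set 1424783_a_at read 9.91, 9.63 and 9.97 against 9.16, 9.31 and 9.29. Probe set 1426261_s_at read 8.86, 8.89 and 8.95 against 8.37, 8.37 and 8.38. In all 3 the lowest treated animal lay above the highest control. The differences were 0.58 ± 0.13, 0.58 ± 0.13 and 0.52 ± 0.17, with unadjusted p of 4.01e-05, 6.02e-05 and 0.00288. Over all probe sets above the filter they ranked 4th, 5th and 50th by p and did not pass (limma adjusted p = 0.316, 0.379 and 0.9998). Without any 1 of the 6 animals they ran from 0.50 to 0.68, and against the corn oil controls they were 0.52, 0.44 and 0.41. Shared exons cannot tell which of the 8 genes gave the signal.

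**Figure D2:**
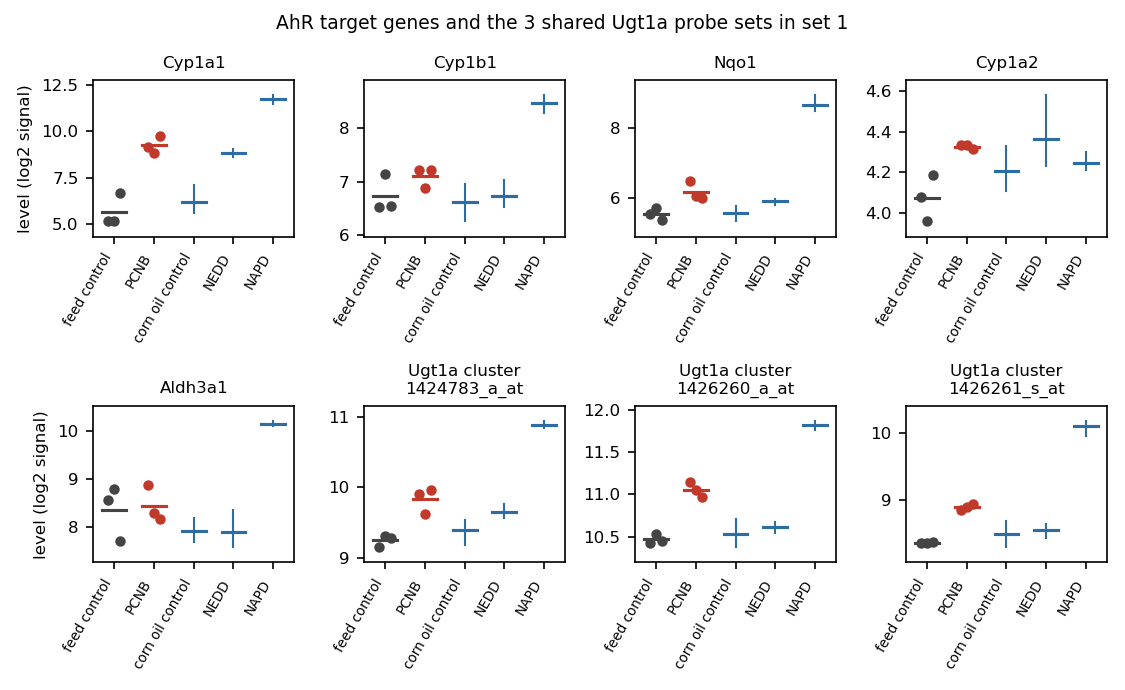
Levels (log2 signal) of 5 AhR target genes and the 3 shared Ugt1a probe sets in the groups of set 1, 3 mice each. Points are animals and bars their mean for feed controls and PCNB; for corn oil controls, NEDD and NAPD a bar gives the mean and a line the range. The PCNB points lie above all feed controls for Cyp1a1, Nqo1, Cyp1a2 and the Ugt1a probe sets, and overlap them for Cyp1b1 and Aldh3a1.

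The receptor and its partners showed no called change. Of 9 tested members of the AhR complex, 3 lay above 0 and 6 below, with a median of -0.08. Ahr itself read 10.45, 10.69 and 10.54 with PCNB and 10.49, 10.57 and 10.71 in controls, a difference of -0.03 ± 0.27 with overlapping groups. Arnt, its DNA-binding partner, read 7.95, 7.91 and 7.95 against 8.08, 8.30 and 8.13. The groups did not overlap, where 4.94% of all genes lay lower in this way, and the difference was -0.23 ± 0.11 (unadjusted p = 0.039). Its 5 probe sets differed in direction: another without overlap was at -0.21, and the other 3 by -0.05 to 0.10 with overlapping groups. Arnt differed by -0.13 from the corn oil controls. Hsp90aa1, the chaperone, differed by 0.03 and the DNA-binding factor Sp1 by 0.03. The coactivators Ncoa1, Ncoa2 and Ncoa3 differed by -0.08, -0.15 and -0.18, the corepressor Nrip1 by 0.12 and Rb1, a retinoblastoma protein that binds the receptor, by -0.08. Apart from Arnt, none of these had an unadjusted p under 0.05.

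NRF2 genes lay slightly above the controls as a group, and no member was called. Of 38 listed genes 32 were tested: 28 lay above 0 and 4 below, with a median of 0.15. Treated animals lay above all controls for 9 of 32 (28.1%, against 4.23% of all genes) and below all controls for 0. At an unadjusted p under 0.05 there were 4 higher and 0 lower members, Gstp1, Srxn1, Gstm1 and Nqo1. Srxn1, a sulfiredoxin that repairs peroxiredoxins, read 7.33, 7.38 and 7.64 with PCNB against 6.82, 7.02 and 7.09. The groups did not overlap and the difference was 0.47 ± 0.18 (unadjusted p = 0.0106). Gstp1, the main glutathione S-transferase of lung, read 11.82, 11.94 and 11.99 against 11.73, 11.63 and 11.59, a difference of 0.27 ± 0.09 (unadjusted p = 0.00452). Gstm1, another transferase, read 11.88, 11.87 and 11.93 against 11.74, 11.66 and 11.62, a difference of 0.22 ± 0.09 (unadjusted p = 0.0214). Txnrd1, thioredoxin reductase, was 0.33 ± 0.17 higher and Gpx2, a glutathione peroxidase of epithelia, 0.32 ± 0.25, both without overlap. Nfe2l2 itself differed by -0.09 ± 0.20. Against the corn oil controls of set 1, 30 of the 32 lay above 0, with a median of 0.19 and 9 members higher at an unadjusted p under 0.05. The mean level over the 32 genes was 9.57 to 9.66 in treated and 9.34 to 9.50 in control animals.

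**Figure D3:**
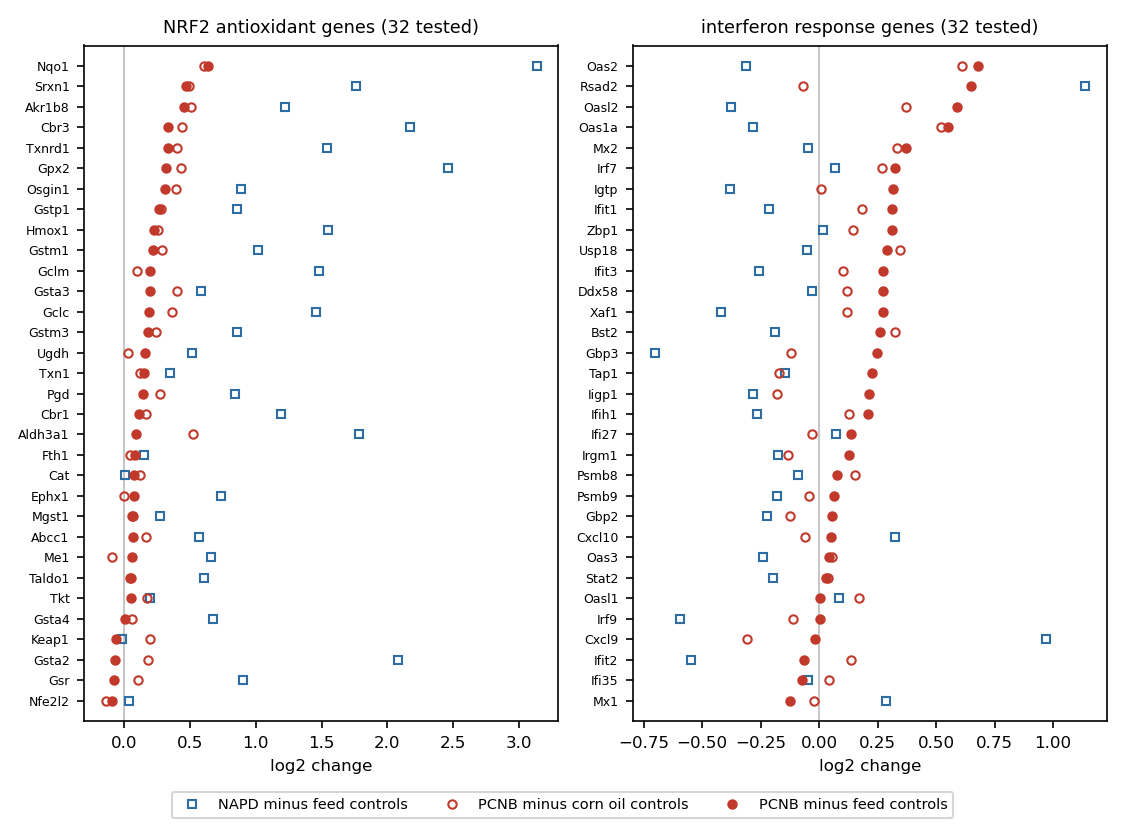
Log2 changes of the 32 tested NRF2 genes (left) and 32 tested interferon genes (right), ordered by the change with PCNB against feed controls (filled circles). Open circles set the same PCNB animals against the corn oil controls, and squares give NAPD minus feed controls. Of the NRF2 genes 28 lie above 0 against feed controls and 30 against corn oil controls, and of the interferon genes 28 and 20.

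No enzyme of the lists that could handle the compound itself was called. Of 21 tested glutathione S-transferases 14 lay above 0, with a median of 0.05, and Gstp1 and Gstm1 were the only members without overlap (9.52% higher, against 4.23% of all genes). Both were already counted among the NRF2 genes, because the lists share members. Of 20 genes of the mercapturic acid pathway 13 lay above 0, with a median of 0.06. The one member without overlap (5% higher, near the 4.23% of all genes) was Dpep1, a dipeptidase that trims glutathione conjugates, at 9.16, 9.32 and 9.23 against 8.67, 8.88 and 9.15 (0.34 ± 0.20). Of 21 reductases, the class that includes nitroreductases, 12 lay above 0 with a median of 0.05, and treated animals lay above all controls for 5 (23.8%, against 4.23% of all genes) and below all controls for 3 (14.3%, against 4.94%). Akr7a5, an aldo-keto reductase, had the lowest p of them, at 9.04, 8.93 and 8.85 against 8.79, 8.62 and 8.60 (0.27 ± 0.12, unadjusted p = 0.0311), but its difference was -0.03 when all its probe sets were averaged and 0.17 against the corn oil controls. Cbr3, a carbonyl reductase, was 0.33 ± 0.20 higher without overlap. The largest difference among the reductases, 0.64, was that of Nqo1, already counted with the AhR and NRF2 genes. Targets of the receptors CAR and PXR, which many chlorinated compounds activate in liver, had a median of -0.04 over 10 tested genes, with 1 without overlap in each direction (10%, against 4.23% higher and 4.94% lower over all genes). The lowest p among them was that of Ces2e, a carboxylesterase (-0.22 ± 0.15). Ces1g, another carboxylesterase, read 5.52, 5.79 and 5.61 with PCNB against 5.02, 4.78 and 4.83. Its groups did not overlap and the difference was 0.76 ± 0.37 (unadjusted p = 0.0424). Over 16 tested genes of haem synthesis and breakdown the median was 0.06, with Blvrb, biliverdin reductase B, at 0.30 ± 0.16. The median of 13 thyroid hormone responsive genes was -0.04, with Thrsp, a lipogenic gene, at -0.57 ± 0.38.

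Cyp26b1 had the largest negative difference of all genes tested. It encodes a cytochrome P450 that clears retinoic acid and lies on chromosome 6 (84571414 to 84593908 in GRCm38.p6). It read 5.86, 6.72 and 6.62 with PCNB and 7.58, 7.44 and 8.17 in controls, so all 3 treated animals lay below all 3 controls. The difference was -1.33 ± 0.50, with a 95% interval of -2.34 to -0.32, and did not pass (unadjusted p = 0.0106, limma adjusted p = 0.9997). The corn oil controls ran from 6.32 to 8.59 and overlapped the treated animals.

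Other differences with no overlap and an unadjusted p under 0.05 were smaller and did not pass. Synpo2l, a cytoskeletal protein of heart and skeletal muscle, had the lowest p after Cyp1a1: it read 5.30, 4.84 and 4.85 against 4.54, 4.48 and 4.28 (0.56 ± 0.12, limma adjusted p = 0.209). Its other 2 probe sets above the filter differed by 0.38 and 0.30 with overlapping groups. Atf3, a stress-induced transcription factor, read 6.45, 6.88 and 6.30 against 5.93, 6.14 and 5.90 (0.55 ± 0.27). Abcg8, 1 subunit of a sterol transporter, differed by 0.54 ± 0.15. On the low side Bex1, a small adaptor protein of neuronal cells, differed by -0.71 ± 0.30 and Clec12b, a C-type lectin receptor, by -0.67 ± 0.20. Rfc4, a subunit of the DNA clamp loader, differed by -0.60 ± 0.23 and Ppp3cc, a calcineurin catalytic subunit, by -0.54 ± 0.20. With array weights Synpo2l (0.63), Abcg8 (0.57) and Rfc4 (-0.75) passed, and Atf3, Bex1, Clec12b and Ppp3cc did not. Against the corn oil controls all 7 differences were smaller in size: Synpo2l was at 0.28, Atf3 at 0.20, Abcg8 at 0.21, Bex1 at -0.44, Clec12b at -0.26, Rfc4 at -0.54 and Ppp3cc at -0.44.

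Interferon response genes lay above the feed controls in most cases. Of 35 listed genes 32 were tested, 28 above 0 and 4 below, with a median of 0.22 and 0 called. Treated animals lay above all controls for 10 of 32 (31.2%, against 4.23% of all genes). Oas2, an oligoadenylate synthetase that detects viral RNA, read 7.04, 7.19 and 6.67 with PCNB and 6.42, 6.17 and 6.26 in controls (0.68 ± 0.28, unadjusted p = 0.0187). Oas1a, of the same family, read 8.01, 8.13 and 7.85 against 7.60, 7.36 and 7.38 (0.55 ± 0.27), and Oasl2 8.72, 8.81 and 8.53 against 8.22, 8.04 and 8.04 (0.59 ± 0.30). The antiviral GTPase Mx2 read 5.62, 5.60 and 5.81 against 5.35, 5.21 and 5.35 (0.37 ± 0.11, unadjusted p = 0.00169). In these 4 genes every treated animal lay above every control. Rtp4, an interferon-induced chaperone that is not on the list, read 9.63, 9.59 and 9.55 against 9.31, 8.86 and 8.95 (0.54 ± 0.21). The mean level of the 32 genes was 7.90 to 7.94 with PCNB and 7.63 to 7.77 in feed controls. Against the corn oil controls the median was 0.08, with 20 of 32 genes above 0, and Oas2 was 0.61, Oas1a 0.52 and Oasl2 0.37 higher. With array weights Mx2 passed (0.41, limma adjusted p = 0.0304). Without control animal 1-29 the median was 0.14.

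Markers of cell types and physiological states did not pass the test in any list other than that of AhR targets, which holds Cyp1a1. In bulk tissue fewer cells of a type and less RNA per cell cannot be told apart. Of 28 ciliated cell markers 25 lay below 0, with a median of -0.17, but control animal 1-29 lay at the level of the treated ones: the mean level was 7.94, 7.84 and 7.73 with PCNB and 8.12, 8.11 and 7.74 in controls. Dnaic2, a dynein of the ciliary axoneme, was the one member without overlap (3.57% lower, below the 4.94% of all genes). It read 6.48, 6.35 and 6.27 against 6.85, 6.94 and 6.60, a difference of -0.43 ± 0.31. From the corn oil controls it differed by -0.13. Against those controls the median of the list was -0.10, with 3 of 28 genes above 0, the same number as against the feed controls. Of 26 cardiac muscle genes, which reach lung samples through the walls of pulmonary veins or adhering heart tissue, 24 lay above 0 with a median of 0.20. Their mean level was 7.69 to 8.22 with PCNB and 7.44 to 7.96 in controls, and Mybpc3, a sarcomere protein, differed by 0.41 ± 0.24. The cardiac median was 0.03 against the corn oil controls, with 17 of 26 above 0. Erythroid genes lay above 0 for 16 of 19, with a median of 0.17, and the blood group gene Kel had the lowest p (0.33 ± 0.12, unadjusted p = 0.00765). Against the corn oil controls the erythroid median was -0.01. Among T cell and natural killer cell genes Zap70, a kinase of the T cell receptor, had the lowest p, at 0.35 ± 0.14 with overlapping groups (0.46 and called with array weights), and the median of 24 genes was 0.03. Medians of type I and type II pneumocyte markers were -0.03 and -0.002, and that of airway secretory markers was 0.04. The 29 cell cycle and proliferation genes depended on the controls used. Their median was 0.035 against feed controls and -0.374 against corn oil controls. Against the latter 1 of 29 lay above 0, and 12 were lower at an unadjusted limma p under 0.05, as were 128 of all 14593 genes. No gene was called lower in that comparison.

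Several of the widest spreads lay between animals of the same group. S100a8 and S100a9, the calgranulins of neutrophils, read 10.48, 10.66 and 11.85 and 10.25, 10.56 and 11.61 with PCNB, so animals 1-18 and 1-16 lay below and 1-20 within the range of the controls (11.80 to 12.12 and 11.57 to 11.84). Their differences were -0.93 ± 0.69 and -0.92 ± 0.80, and the median of the 19 neutrophil genes tested was -0.15. S100a8 and S100a9 were at -0.45 and -0.43 against the corn oil controls. Dbp, an output gene of the circadian clock, read 5.95, 5.49 and 8.64 with PCNB and 6.86, 7.58 and 8.31 in controls (-0.89 ± 0.81). Dbp differed by -2.05 from the corn oil controls (unadjusted p = 0.0147), and the median of 13 clock genes in its phase, Dbp included, was -0.50 with 1 above 0, against -0.15 and 4 above 0 with feed controls. Zbtb16, a glucocorticoid-induced transcription factor, read 9.70, 8.17 and 10.16 against 9.44, 9.94 and 11.13 (-0.82 ± 0.63). Of 20 glucocorticoid-induced genes 17 lay below 0, with a median of -0.15, but against the corn oil controls 12 lay above 0, with a median of 0.03. With animals 1-16 and 1-29 both left out, Dbp and Zbtb16 turned to 0.08 and 0.25. The part of RNA yield in these values was not tested.

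**Figure D4:**
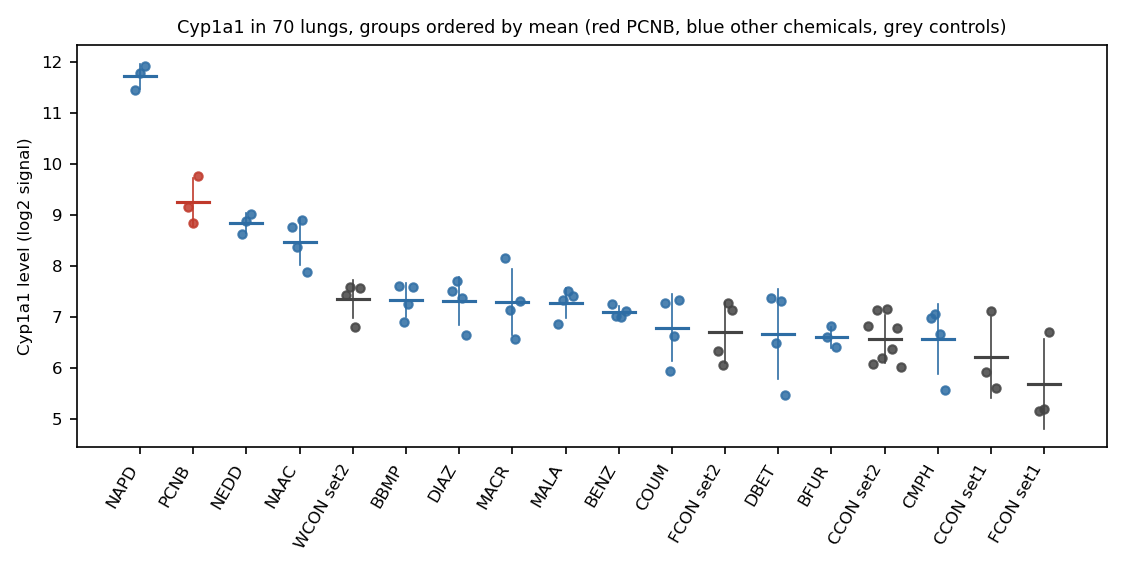
Cyp1a1 level (log2 signal) in all 70 animals by group, ordered by group mean. Points are animals, horizontal bars means and vertical lines 1 SD; PCNB is red, other chemicals blue and controls grey. Codes of chemicals and controls are those given at the start of the text. The 3 PCNB animals sit from 8.84 to 9.76, above all 22 controls and below the 3 NAPD animals.

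Across the series PCNB gave the second highest Cyp1a1 level of 18 groups. NAPD was highest at 11.73 (SD 0.25), followed by PCNB at 9.25 (SD 0.47), NEDD at 8.84 (SD 0.20) and NAAC at 8.48 (SD 0.46, n = 4). The 22 control animals of both sets and all vehicles ran from 5.15 to 7.59, and the 39 treated animals outside the set 1 feed groups from 5.47 to 8.90. NAPD lay above PCNB without overlap. Of the next neighbours, NEDD animals ran from 8.63 to 9.03 and NAAC animals from 7.88 to 8.90, and both ranges overlapped that of PCNB. The set 1 feed controls were the lowest of all group means at 5.68, which enters the size of the PCNB difference, whereas the level of 9.25 does not depend on them.

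Set against NEDD, which was fed at a lower dose in ppm, PCNB showed no called difference in any of 14593 genes (0%), while 471 had an unadjusted p under 0.05. Cyp1a1 was 0.41 ± 0.42 higher with PCNB, with a 95% interval of -0.43 to 1.25 (limma adjusted p = 0.9993), so the 2 chemicals were not told apart on this gene. Both share the same feed controls, against which Cyp1a1 rose by 3.58 with PCNB and by 3.17 with NEDD. The Ugt1a probe sets were 0.43, 0.19 and 0.34 higher with PCNB than with NEDD and did not pass.

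Set against NAPD, also at the lower dose of 2000 ppm, 142 of 14593 genes differed (0.973%), 21 higher with PCNB (0.144%) and 121 lower (0.829%). Cyp1a1 was lower with PCNB by -2.47 ± 0.42, or 5.55-fold (95% interval -3.31 to -1.63, limma adjusted p = 7.93e-05). Of the 6 AhR targets tested 4 were lower, Cyp1a1, Nqo1 (-2.50 ± 0.31), Aldh3a1 (-1.69 ± 0.25) and Cyp1b1 (-1.37 ± 0.30). The call of Cyp1b1 was lost without animal 1-16 (adjusted p = 0.056). The 3 Ugt1a probe sets were lower by -0.77, -1.05 and -1.19 (adjusted p over all probe sets = 0.000102, 1.44e-07 and 1.83e-06). Of 32 NRF2 genes 20 were lower with PCNB and 0 higher, with a median of -0.67 against 0.01 over all genes. Among them Gpx2 read 9.21, 8.94 and 8.94 with PCNB and 11.11, 11.22 and 11.19 with NAPD, a difference of -2.15 ± 0.25. The glutathione synthesis genes Gclc, Gclm and Gss were lower by -1.27, -1.28 and -0.81. Hmox1, haem oxygenase, was lower by -1.32 and lost its call without animal 1-20 (adjusted p = 0.06).

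The largest differences from NAPD lay outside these lists or in antibody genes. Gp2, a membrane glycoprotein of M cells and pancreas, read 3.99, 3.75 and 3.88 with PCNB, within 3.62 to 4.18 in feed controls, and 7.87, 8.43 and 8.06 with NAPD (-4.24 ± 0.45, limma adjusted p = 3.97e-10). All PCNB, feed control and NEDD readings of Gp2 lay below the filter of 4.25, near background. Of these feed groups only NAPD lay above the filter, so the difference describes the NAPD level and not a change with PCNB. Ces1g was lower by -3.81 ± 0.37, at 9.42 to 9.51 with NAPD. Cd177, a neutrophil surface protein, read 5.24, 4.93 and 5.12 against 8.35, 8.41 and 8.95 (-3.47 ± 0.55). Of 23 B cell and plasma cell markers 6 were called lower, where 0.829% of all genes were. Among the 6 were Igk, the kappa light chain (-3.15 ± 0.66), Jchain, which joins antibody units (-3.46 ± 0.73), and Mzb1, a plasma cell chaperone (-1.92 ± 0.29). Igk varied among NAPD animals from 8.00 to 11.36 and lost its call without animal 1-5 (adjusted p = 0.114). Without that animal the number of genes called fell from 142 to 94.

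Of the genes higher with PCNB than with NAPD, several had PCNB levels that overlapped the feed controls. Among these were Chad, Lrrc26, Slc4a5, Htr2b, Asgr1, H2-T24 and Xaf1. Chad, a cartilage matrix protein, read 8.69, 8.11 and 8.16 with PCNB, 6.70, 6.65 and 6.97 with NAPD and 7.90 to 8.81 in controls (1.55 ± 0.30, limma adjusted p = 0.000816). Lrrc26, an accessory subunit of potassium channels in secretory epithelium, read 7.61, 7.53 and 7.78 with PCNB, 7.54 to 7.86 in controls and 6.14, 6.46 and 6.39 with NAPD (1.31 ± 0.18). The cytotoxic proteases Gzma and Gzmb of natural killer and T cells were 1.33 ± 0.31 and 1.04 ± 0.26 higher. Gzma read 10.50, 10.49 and 10.58 with PCNB and 9.29, 8.80 and 9.50 with NAPD. It read 9.89 to 10.33 in feed controls and 9.93 to 11.22 in corn oil controls of set 1. It lost its call without NAPD animal 1-4 (adjusted p = 0.16) or PCNB animal 1-20 (0.062), and Gzmb lost its own without any of 4 animals. Of 32 interferon genes Mx2 (0.42 ± 0.11) and Xaf1, a pro-apoptotic factor (0.69 ± 0.17), were called higher, where 0.144% of all genes were. Neither call held with any 1 of the 6 animals left out (lowest adjusted p = 0.0559).

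**Figure D5:**
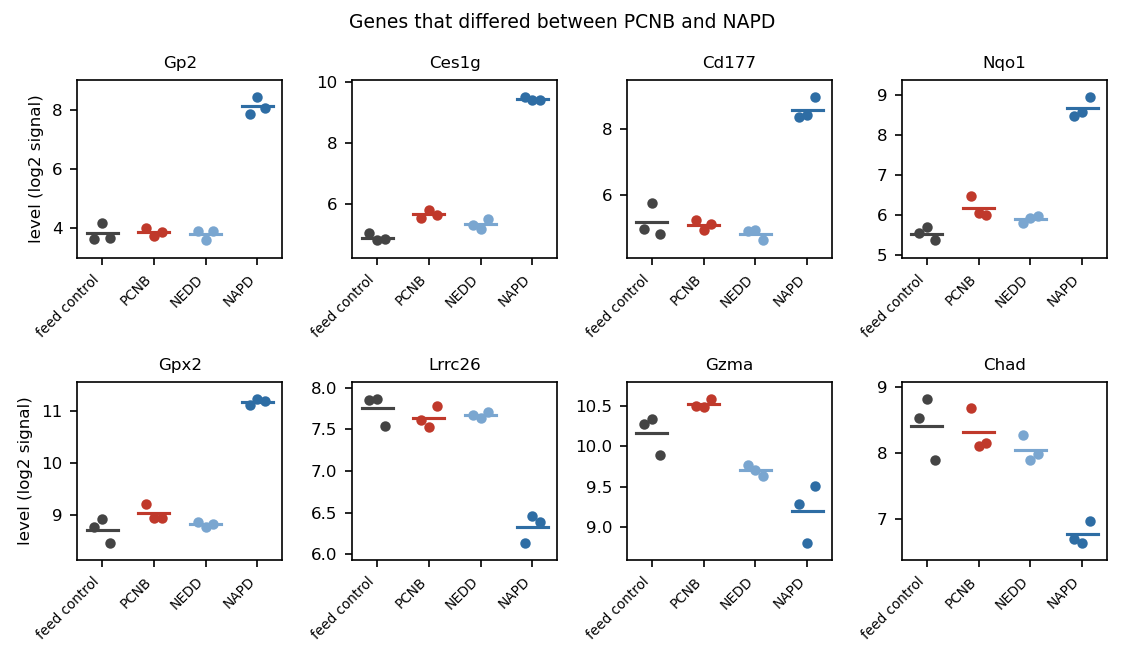
Levels (log2 signal) of 8 genes that differed between PCNB and NAPD, in 3 mice each of the feed controls, PCNB, NEDD and NAPD; points are animals and bars group means. The first 5 genes are highest with NAPD, from -2.15 for Gpx2 to -4.24 for Gp2 as PCNB minus NAPD, and Lrrc26, Gzma and Chad are low with NAPD.

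The Cyp1a1 response to PCNB was also compared with that to each feed chemical of set 2, every response taken against the controls of its own set, so that no control was shared. It exceeded the response to BBMP by 2.94 ± 0.56 (limma adjusted p = 0.0292), to MALA by 3.00 ± 0.56 (adjusted p = 0.0196) and to DIAZ by 2.97 ± 0.56 (adjusted p = 0.0246). Against NAAC, the other nitroaromatic compound given in feed, the excess of 1.80 ± 0.56 did not pass (95% interval 0.68 to 2.91, unadjusted p = 0.00203, adjusted p = 0.9999). Cyp1a1 read 8.84 to 9.76 with PCNB and 7.88 to 8.90 with NAAC, against 5.15 to 6.70 and 6.06 to 7.28 in their controls. The calls were close to the threshold. Those for BBMP, MALA and DIAZ were lost in 8, 6 and 8 of the 14 fits without 1 array, each time among them without 1-27, 1-28, 1-18, 1-20, 2-44 or 2-45, with adjusted p up to 0.442, 0.14 and 0.38. BBMP animals 2-2 and 2-4 and DIAZ animals 2-25 and 2-28 also ended the call of their own comparison. Doses in ppm differed between all of these chemicals. In the comparison with MALA 3 of 14593 genes were called (0.0206%), 1 higher and 2 lower (0.0137%). The lower ones were Mdk, a growth factor (-0.45 with PCNB, 0.65 with MALA), and Krtap17-1, a keratin-associated protein (-0.49 and 2.17).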

How the data were processed

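Right lung lobe RNA of 70 mice was hybridised to Affymetrix Mouse 430 2.0 arrays, per the labels. The deposited log2 values were read as such from their range, 2.47 to 14.53, and the sources used here name no summarization or normalization method. Of 45101 probe sets 64 controls were left out, and the 34945 with 1 gene symbol were kept for gene-level work (932 had several symbols and 9160 none). Symbols followed Entrez identifiers into RefSeq GRCm38.p6 for 18032 symbols. Each gene took its probe set with the highest mean, and 14593 of 18193 genes lay above the 30th percentile of probe set means (4.25). With limma 3.58.1 (lmFit and eBayes, R 4.3.3) 18 group means were estimated from the 70 arrays together, with p-values adjusted by Benjamini-Hochberg over the 14593 genes and called at 0.05. Intervals are 95%. The script was tested on simulated data. No 2 arrays were identical, and the number of arrays limits the precision. Gene lists (49) are described by counts and medians. The members and lists were chosen with earlier results of these data known. The text names every gene called against feed controls, all measured AhR targets and partners, up to 3 members of lowest p per list, and a selection of the 10 largest uncalled differences per direction and of the 8 largest called ones per direction in direct contrasts; further genes were picked after their values were seen (Oasl2, Rtp4, Txnrd1, Gpx2, Nfe2l2, S100a9, Dnaic2, Mzb1, Xaf1 and the Ugt1a probe sets). Promoter sequences are RefSeq's, GRCm38.p6. Alternatives were other filters, the mean of probe sets, quantile normalization, fewer arrays, variance trend, array weights, a 3' minus 5' covariate, other controls and each array left out; fits on feed arrays of set 1, with the absorbance ratio of the labels, over all probe sets and without animals 1-16 and 1-29 were added after the data were seen. Figures were drawn with matplotlib.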

Additional observations from a re-analysis of the deposited data

Results flagged for a closer look

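Some responses differed from those to another chemical in a test of the difference itself. The Cyp1a1 response to PCNB exceeded that to BBMP by 2.94, to MALA by 3.00 and to DIAZ by 2.97, and Cyp1a1 with PCNB minus with NAPD was -2.47. In the comparison with MALA, Krtap17-1 differed by -2.66 and Mdk by -1.09, with 4 MALA animals against 3 of PCNB. The call of Krtap17-1 was lost in 11 and that of Mdk in 13 of 14 fits without 1 array.

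The shared Ugt1a probe sets lie outside the test over genes. They read above the feed controls by 0.58 (1424783_a_at), 0.58 (1426260_a_at) and 0.52 (1426261_s_at), and were chosen after their values were seen.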

How the results depend on the processing

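Cyp1a1 stayed called against feed controls under every alternative run, and was the only gene called except with array weights, which gave 75 genes. Array weights also gave 34 genes against NEDD, 871 against NAPD and a called excess over NAAC of 2.32. With only the arrays of the groups compared, NAPD gave 241 genes, 112 of them among the 142, and the Cyp1a1 excess over BBMP (2.94) and DIAZ (2.97) was no longer called. Without 1 array, counts ran from 94 to 116 against NAPD and from 0 to 2 (without 1-14) against NEDD, and the Cyp1a1 excess from 2.68 to 3.45 over BBMP, 2.74 to 3.51 over MALA and 2.70 to 3.48 over DIAZ. Of the uncalled genes named, these changed sign. With the mean over all probe sets they were Ahr (0.048), Akr7a5 (-0.028), Nrip1 (-0.051), Rb1 (0.025), Sp1 (-0.02) and Tiparp (-0.004). With the 3' minus 5' covariate it was Ahr (0.018). With pooled controls they were Ahr (0.016) and Hsp90aa1 (-0.021), and with corn oil controls Ahr (0.064), Hsp90aa1 (-0.074) and Tiparp (-0.009). With the labels' absorbance ratio it was Sp1 (-0.039). Without animals 1-16 and 1-29 they were Aldh3a1 (-0.16), Dbp (0.075), Sp1 (-0.069) and Zbtb16 (0.246). Without 1 array the range spanned 0 for Ahr (-0.098 to 0.028), Aldh3a1 (-0.234 to 0.303), Hsp90aa1 (-0.021 to 0.097), Ncoa1 (-0.137 to 0.005), Nfe2l2 (-0.165 to 0.006), Sp1 (-0.055 to 0.095) and Tiparp (-0.004 to 0.214). The causes were not tested. Signal near background limits Ahrr, Cyp1a2 and Gp2. Kel, Ces2e, Synpo2l and Clec12b also had readings near the filter of 4.25, with PCNB, in feed controls or in both.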
